A study of Mus musculus with 16 samples.

Results

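Fatty acid use in the heart was followed at 10 genes: the regulators Ppargc1a, Ppara and Esrra, the uptake genes Lpl, Cd36 and Fabp3, the oxidation genes Cpt1b, Acadm and Hadha, and Pdk4, which sets fuel choice. They were chosen by name, with earlier results of these data known. A ChIP-seq peak was counted for a gene when it overlapped the gene body with 5 kb either side on the mouse build mm10. All 10 were found among 21887 protein-coding genes. ChIP-seq recovers and sequences the DNA that a chosen protein occupies, and a peak is a stretch where that DNA was enriched over background.

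Ventricles came from mice at postnatal day 15. Paro/Neo mice had received the aminoglycoside antibiotics paromomycin and neomycin together, at a dose of 150 mg/kg injected into the peritoneum 2 times daily, from postnatal day 7 for 7 days. Control mice received the vehicle, PBS, over the same days. Chromatin was precipitated with an antibody to Meis1/2 or with one to Hoxb13, giving 2 Paro/Neo and 2 control libraries for each antibody, with 1 peak list per library. The homeodomain transcription factors Meis1 and Hoxb13 have been studied in the postnatal cell cycle exit of heart muscle cells, and the comparison asks whether the drug pair alters where they sit. Because the first antibody recognises Meis1/2, its peaks, called Meis1 here, can include sites of Meis2. The labels speak of ventricles of 2 hearts used as duplicates, which leaves unclear whether a library holds 1 heart or a pool, so p-values measure the spread between these libraries only.

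The heart moves towards burning fatty acids in the weeks after birth. Lipoprotein lipase frees fatty acids from circulating triglycerides, the transporter CD36 carries them across the membrane, and FABP3 binds them in the cytoplasm. They then enter mitochondria as carnitine esters and are shortened by beta-oxidation, under the control of PPARα, ERRα and their coactivator PGC-1α.

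Promoters are shown for 4 genes with a Hoxb13 peak over the transcription start: the 3 touched in the most libraries, Esrra, Pdk4 and Ppara, and Acadm, touched in the Paro/Neo libraries alone. Each sequence runs 5′ to 3′ from 250 bases before to 50 bases after the start site, as given by RefSeq for GRCm38.p6, whose coordinates are those of mm10. Capitals mark the bases that lay inside every Hoxb13 peak touching the window. The windows are chr19:6921759-6922058 on the minus strand for Esrra, chr6:5496229-5496528 on the minus strand for Pdk4, chr15:85735526-85735825 on the plus strand for Ppara and chr3:153944594-153944893 on the minus strand for Acadm.
Esrra: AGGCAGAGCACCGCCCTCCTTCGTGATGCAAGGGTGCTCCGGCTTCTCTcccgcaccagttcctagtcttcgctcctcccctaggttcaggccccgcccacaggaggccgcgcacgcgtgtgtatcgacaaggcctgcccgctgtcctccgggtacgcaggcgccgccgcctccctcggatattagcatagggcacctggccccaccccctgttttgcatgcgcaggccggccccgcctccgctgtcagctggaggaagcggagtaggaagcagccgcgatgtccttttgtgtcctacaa
Pdk4: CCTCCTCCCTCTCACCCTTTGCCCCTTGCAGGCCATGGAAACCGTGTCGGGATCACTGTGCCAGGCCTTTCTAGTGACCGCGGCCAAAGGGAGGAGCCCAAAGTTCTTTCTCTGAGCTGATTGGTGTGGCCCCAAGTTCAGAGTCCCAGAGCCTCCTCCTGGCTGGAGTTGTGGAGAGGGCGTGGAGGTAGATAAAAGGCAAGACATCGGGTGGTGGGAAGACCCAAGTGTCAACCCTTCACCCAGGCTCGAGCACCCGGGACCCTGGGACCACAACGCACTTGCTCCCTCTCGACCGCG
Ppara: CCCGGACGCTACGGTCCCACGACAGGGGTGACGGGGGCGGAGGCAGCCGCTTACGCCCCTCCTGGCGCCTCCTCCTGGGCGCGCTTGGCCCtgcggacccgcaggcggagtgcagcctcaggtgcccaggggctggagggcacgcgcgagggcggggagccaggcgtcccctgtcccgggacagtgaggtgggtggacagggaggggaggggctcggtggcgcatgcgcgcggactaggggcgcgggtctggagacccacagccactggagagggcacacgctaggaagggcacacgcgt
Acadm: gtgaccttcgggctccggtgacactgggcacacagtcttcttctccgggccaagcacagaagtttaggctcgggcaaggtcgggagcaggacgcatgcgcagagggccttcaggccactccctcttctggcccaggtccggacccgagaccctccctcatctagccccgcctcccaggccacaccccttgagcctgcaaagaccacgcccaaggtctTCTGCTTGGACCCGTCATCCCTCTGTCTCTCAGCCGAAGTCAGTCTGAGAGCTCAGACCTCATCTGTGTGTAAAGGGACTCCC

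Lists differed in length. Meis1 lists held 1541 and 1025 peaks in Paro/Neo replicates 1 and 2 and 3529 and 3176 in control replicates 1 and 2. Hoxb13 lists held 821 and 16963 peaks in Paro/Neo replicates 1 and 2 and 5202 and 1121 in control replicates 1 and 2, so Hoxb13 Paro/Neo replicate 2 stood apart. Sequencing depth is unknown, and deeper sequencing alone can lengthen a list. For the second Meis1 replicates, the naming of the deposited lists and the sample titles disagree about treatment; the titles were followed, and values for the exchanged assignment are given. Titles of the samples differ in style between the antibodies, each with inputs of its own, so antibody and sample set cannot be told apart. The fold of a peak is the authors' own, and here it only ranked peaks within a list, as a percentile on which 100 is the highest fold. Among marker genes of cell types, Meis1 peaks lay at 3 and 3 of 8 cardiomyocyte genes in Paro/Neo replicates 1 and 2, and at 6 and 5 in control replicates 1 and 2. All protein-coding genes moved the same way, with 4.07% and 2.83% called in the Paro/Neo replicates and 8.59% and 8.21% in the control replicates. So did the fatty acid use genes below, and the part of the markers in that result was not tested. Meis1 was at 2 of 6 endothelial genes in all 4 libraries and at no fibroblast, leukocyte or adipocyte gene of 6 each. Hoxb13 was at 8 of 8 cardiomyocyte genes in all 4 libraries and at no adipocyte gene. It was at 1 and 6 endothelial genes in Paro/Neo replicates 1 and 2, and at 4 and 1 in control replicates 1 and 2. Fibroblast genes held it at 0 and 6 in the Paro/Neo replicates, and at 1 and 0 in the control replicates, and leukocyte genes at 0 and 1 in the Paro/Neo replicates, and at 1 and 1 in the control replicates. Beside these Hoxb13 counts, 4.20% and 46.5% of all protein-coding genes were called in Paro/Neo replicates 1 and 2. In control replicates 1 and 2 the shares were 24.2% and 5.79%. The endothelial and fibroblast counts were likewise highest in the longest list. The ventricle holds several cell types, and a peak does not tell in which of them the DNA was occupied.

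Meis1 peaks were called at none of the 10 genes in either Paro/Neo library, and at 4 of the 10, Ppargc1a, Ppara, Lpl and Cd36, in both control libraries. Among all protein-coding genes the share with a Meis1 peak was 4.07% and 2.83% in Paro/Neo replicates 1 and 2, and 8.59% and 8.21% in control replicates 1 and 2. The number of these genes with a peak averaged 0 ± 0 in Paro/Neo libraries and 4 ± 0 in control libraries (SD, n = 2 each), a difference of −4 (exact two-sided permutation p = 0.333, the smallest that 2 libraries against 2 can give). Relative to list length, 0 and 0 peaks per 1000 lay at the 10 genes in Paro/Neo replicates 1 and 2, against 1.42 and 1.89 in control replicates 1 and 2. That difference was −1.65 per 1000 (exact two-sided permutation p = 0.333). With the second replicates exchanged, each treatment would hold 1 list with the 4 genes and 1 list with none, and the difference would be 0.

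A peak in neither Paro/Neo library and in both control libraries was found at 2.08% of protein-coding genes, 455 of 21887. The reverse pattern was found at 4 genes, none of them among the 10. The Paro/Neo lists were also the shorter ones, and with every Meis1 list shortened to its 1025 highest folds, the length of the shortest, the pattern was left at 1 of the 4 genes, Ppargc1a, and the difference was −1.5 genes. Merged from the 4 libraries wherever peaks shared at least 1 bp, Meis1 peaks at these genes gave 7 regions of 211 to 852 bp, of which 4, 1 at each gene, were called in both control libraries. Across the genome, 2033 Meis1 regions were called in both control libraries, and 807 of them in neither Paro/Neo library. Absence of such a region from both Paro/Neo lists was thus common.

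**Figure D1:**
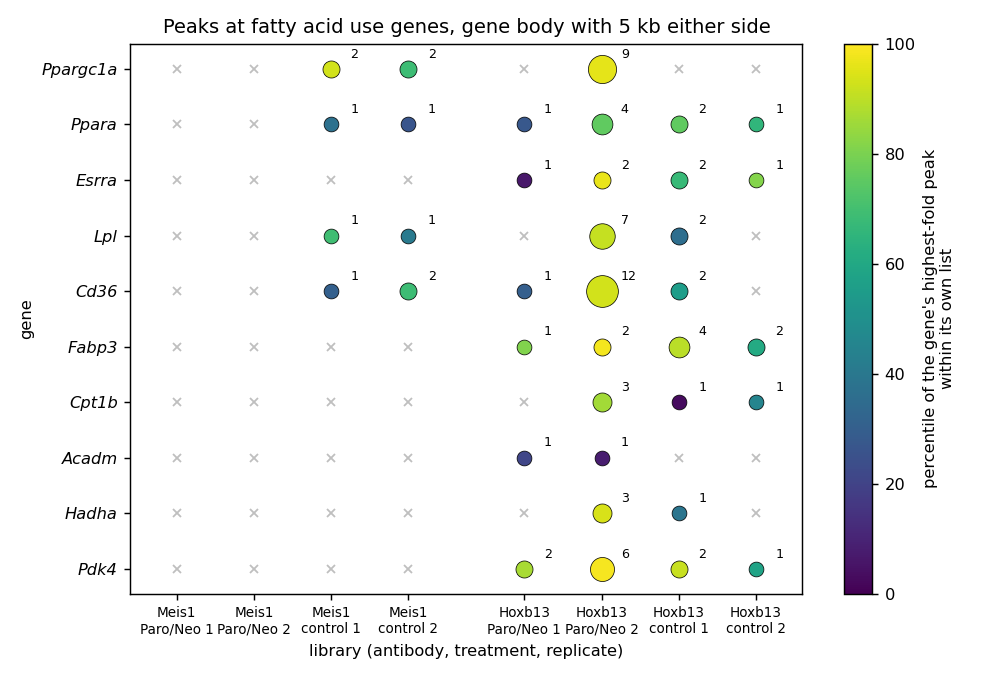
Peaks at the 10 genes by library. Each row is a gene and each column a library; circle size and the printed number give the peaks called, colour gives the within-list percentile of the gene's highest-fold peak, and a cross marks no peak. Meis1 circles appear at 4 genes in the control columns alone, and Hoxb13 Paro/Neo replicate 2 has a circle in all 10 rows.

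Ppargc1a encodes the coactivator PGC-1α, which drives mitochondrial biogenesis. Its Meis1 region, chr5:51591482-51591751, was called in neither Paro/Neo library. In control replicate 1 its peak had a fold of 8.49 and ranked 237 of 3529, and in control replicate 2 a fold of 5.47 and rank 996 of 3176. It lies inside the annotated gene, 23.89 kb upstream of the start site of the RefSeq promoter entry. Its mean percentile of 81.0 was the highest of the 4 genes. Both of these peaks are among the 1025 highest folds of their own lists. Each control library also had a peak of its own at Ppargc1a, at chr5:51477204-51477414 in replicate 1 and chr5:51553767-51554050 in replicate 2. The gene's window spans 672 kb, against a median window of 27.2 kb over all genes, and a long gene has more room for a peak.

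Ppara encodes PPARα, a nuclear receptor activated by fatty acids. Its Meis1 region, chr15:85733847-85734698, was called in neither Paro/Neo library and ranked 2232 of 3529 and 2337 of 3176 in control replicates 1 and 2, with folds of 4.32 and 4.13. Both control peaks lie just outside the gene body, 0.308 and 0.212 kb from its 5′ end. Beyond the 5 kb limit, 9.77 to 9.84 kb from the gene, another Meis1 peak was called in Paro/Neo replicate 2 at percentile 44.7 and in control replicates 1 and 2 at percentiles 93.4 and 78.1. The absence of Meis1 from Ppara in Paro/Neo libraries thus holds within 5 kb and not within 10 kb. No Meis1 peak was called at Esrra, the gene of the orphan nuclear receptor ERRα, in any library.

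Lpl encodes lipoprotein lipase. The Meis1 region inside it, chr8:68882835-68883067, was again absent from both Paro/Neo lists, and its control peaks had folds of 5.47 and 4.53, ranks 1083 of 3529 and 1875 of 3176. Cd36 held a region at chr5:17876619-17876936 with control folds of 4.14 and 3.87, ranks 2462 and 2614, so it was the lowest of the 4 genes with a mean percentile of 24.0. Control replicate 2 had a further peak there, chr5:17849700-17849919, at rank 994. Both Cd36 regions lie upstream of the RefSeq start site and inside the annotated gene, the shared one by 40.85 and 40.90 kb. The exon and intron structure was not used here.

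Fabp3, Cpt1b, Acadm, Hadha and Pdk4 had no Meis1 peak in any library. Fabp3 came nearest: 9.29 and 9.21 kb from the gene, control replicates 1 and 2 each held a peak, at percentiles 47.1 and 75.3. The Meis1 calls thus fell on 2 of 3 regulators and 2 of 3 uptake genes, and the mitochondrial enzymes had none. With 8.59% and 8.21% of all genes called in control replicates 1 and 2, no call at these few enzyme genes is near the background. Window length differed too. Windows were 672 kb at Ppargc1a, 117 at Cd36, 81.9 at Ppara and 36.4 at Lpl. They were 45.6 kb at Hadha, 32.3 at Acadm, 22.9 at Pdk4, 21.1 at Esrra, 19.5 at Cpt1b and 16.7 at Fabp3. Whether the roles differ was not tested.

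Hoxb13 gave another picture. Peaks were called at 6 and 10 of the 10 genes in Paro/Neo replicates 1 and 2, and at 8 and 5 in control replicates 1 and 2. Over all protein-coding genes the share was 4.20% and 46.5% in Paro/Neo replicates 1 and 2, and 24.2% and 5.79% in control replicates 1 and 2. The members' share was above that of all genes in each Hoxb13 list, including the short ones. As the members were chosen with earlier results of these data known, that excess is a description only. The count averaged 8.00 ± 2.83 in Paro/Neo libraries and 6.50 ± 2.12 in control libraries (SD, n = 2 each), and the difference of 1.5 was within the spread between replicates (exact two-sided permutation p = 0.667). Without Paro/Neo replicate 2 the difference was −0.500, without control replicate 2 it was 0, and without Paro/Neo replicate 1 it was 3.50.

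The treatment difference in Meis1 minus that in Hoxb13 was −5.50 genes (exact two-sided permutation p = 0.111 over 36 orders, whose smallest is 0.0556). With the second Meis1 replicates exchanged it was −1.50 (exact two-sided permutation p = 0.722). A treatment effect that differs between the antibodies was therefore not shown.

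**Figure D2:**
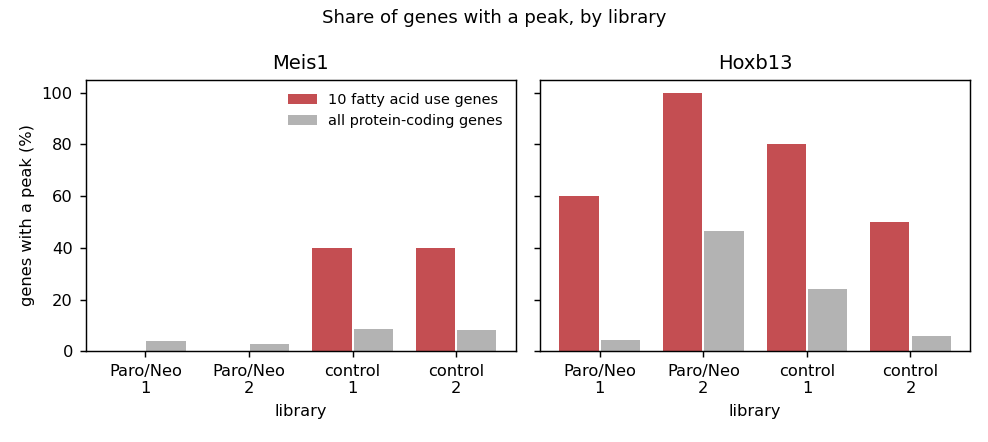
Share of genes with a peak in each library, in percent, with the 10 fatty acid use genes in red and all protein-coding genes in grey. Red bars are at 0 in both Meis1 Paro/Neo libraries and above the grey bar in the other 6 libraries.

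Peak density, which allows for gene length, put the Hoxb13 libraries in the same order. Hoxb13 peaks numbered 6.57 and 46.0 per Mb of the members' windows in Paro/Neo replicates 1 and 2, and 15.0 and 5.63 per Mb in control replicates 1 and 2. All gene windows held 0.640 and 12.2 per Mb in the Paro/Neo replicates, and 4.05 and 0.871 per Mb in the control replicates. For Meis1 the members held 0 and 0 peaks per Mb in Paro/Neo replicates 1 and 2, and 4.69 and 5.63 per Mb in control replicates 1 and 2. The corresponding values of all genes were 0.769 and 0.516 per Mb in the Paro/Neo replicates, and 1.82 and 1.66 per Mb in the control replicates. Ppargc1a alone covers more window than the other 9 genes together, which span 394 of 1065 kb, and the density without it, a choice made after seeing the data, is higher in each list that held a member peak. Relative to list length, 8.53 and 2.89 Hoxb13 peaks per 1000 lay at the 10 genes in Paro/Neo replicates 1 and 2, and 3.08 and 5.35 in control replicates 1 and 2 (difference 1.49, exact two-sided permutation p = 1.00). Leaving out a library moved that difference to between −1.33 (without Paro/Neo replicate 1) and 4.31 (without Paro/Neo replicate 2).

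All 4 Hoxb13 libraries had a peak at Ppara, Esrra, Fabp3 and Pdk4, that is at 4 of 10 genes, against 2.83% of protein-coding genes. When only peaks with −log10 q of at least 2 were kept, Fabp3 alone remained in all 4. With the gene body alone Esrra and Ppara did, and with each list shortened to 821 peaks Fabp3 and Pdk4 did. Peaks in at least 2 libraries were found at 9 of the 10 genes, Ppargc1a being the exception, against 23.6% of protein-coding genes. The members' Hoxb13 peaks merged into 50 regions, of which 35 were called in 1 library, and 34 of those were in Paro/Neo replicate 2 alone. Another 9 regions were called in 2 libraries, 3 in 3 and 3 in all 4. The same split over all Hoxb13 regions was not counted, so these numbers describe the members only. The list of Paro/Neo replicate 2 was by far the longest, with 16963 peaks.

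Among the regulators, Esrra carried a Hoxb13 region over its start, chr19:6921339-6922530, in all 4 libraries. Its peaks ranked 768 of 821 and 538 of 16963 in Paro/Neo replicates 1 and 2, with folds of 2.95 and 4.52. In control replicates 1 and 2 they ranked 1703 of 5202 and 207 of 1121, with folds of 3.48 and 4.04. The peak was thus near the bottom of the list in one Paro/Neo library and near the top in the other. The bases common to the 4 peaks are the first 49 of the printed window. Part of the widest peak overlaps the neighbouring gene Catsperz, and the data do not tell which gene a peak belongs to.

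At Ppara, a region over the start, chr15:85734493-85735912, was called in Paro/Neo replicates 1 and 2 and in control replicate 1, at percentiles 27.3, 68.1 and 75.6. Those 3 peaks share bases 1 to 91 of the printed window. The Hoxb13 peak of control replicate 2 lies elsewhere in Ppara, at chr15:85800968-85801141 with rank 388 of 1121, so the 4-library call of this gene joins separate sites. Ppargc1a had 0 and 9 Hoxb13 peaks in Paro/Neo replicates 1 and 2, and 0 and 0 in control replicates 1 and 2. The 9 peaks belong to the list of 16963, where the highest reached a fold of 4.36 and rank 694, at chr5:51899628-51900048. They are spread over a window of 672 kb, and all gene windows held 12.2 peaks per Mb in that list, so their density is near the background.

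Among the uptake genes, Fabp3 was the most densely covered. Its region chr4:130310125-130317452, 7328 bp across most of the gene and beyond its 3′ end, takes that extent from Paro/Neo replicate 2 alone. All 4 Hoxb13 libraries had a peak in it, at a mean percentile of 82.4. The only Fabp3 peak of Paro/Neo replicate 1, chr4:130315576-130316589, lies beyond the 3′ end and overlaps the neighbouring gene Zcchc17. Peaks of the other libraries also reach that stretch, and the data do not tell which gene it belongs to. Folds were 4.10 and 4.98 in Paro/Neo replicates 1 and 2, ranks 158 of 821 and 282 of 16963. They were 4.05 and 3.58 in control replicates 1 and 2, ranks 549 of 5202 and 441 of 1121. Peaks covered 6.06% and 59.4% of the Fabp3 window in Paro/Neo replicates 1 and 2, and 32.9% and 7.25% in control replicates 1 and 2. The coverage followed the length of the list in each library, with no order by treatment.

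Cd36 had 1 and 12 Hoxb13 peaks in Paro/Neo replicates 1 and 2, and 2 and 0 in control replicates 1 and 2. Its widest region, chr5:17773736-17780825 beyond the 3′ end, was called in 3 libraries. A further peak of control replicate 1 in that region starts 5.94 kb from the gene, just outside the limit, while the outermost Cd36 peak counted lies 4.44 kb from it. Lpl had 0 and 7 Hoxb13 peaks in Paro/Neo replicates 1 and 2, and 2 and 0 in control replicates 1 and 2. One Lpl peak of Paro/Neo replicate 2, at chr8:68882409-68883225 and percentile 87.1, covers the Meis1 region of the control libraries.

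Hoxb13 peaks of Paro/Neo replicate 2 overlapped 3 of the 4 Meis1 regions found in neither Meis1 Paro/Neo library and in both controls, those at Ppara, Ppargc1a and Lpl, but not the one at Cd36. Over all 807 regions of that kind the share was 35.6%. Those were taken across the genome, in a gene window or not, so the 2 sets are unlike. The overlap rests on the longest Hoxb13 list alone.

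**Figure D3:**
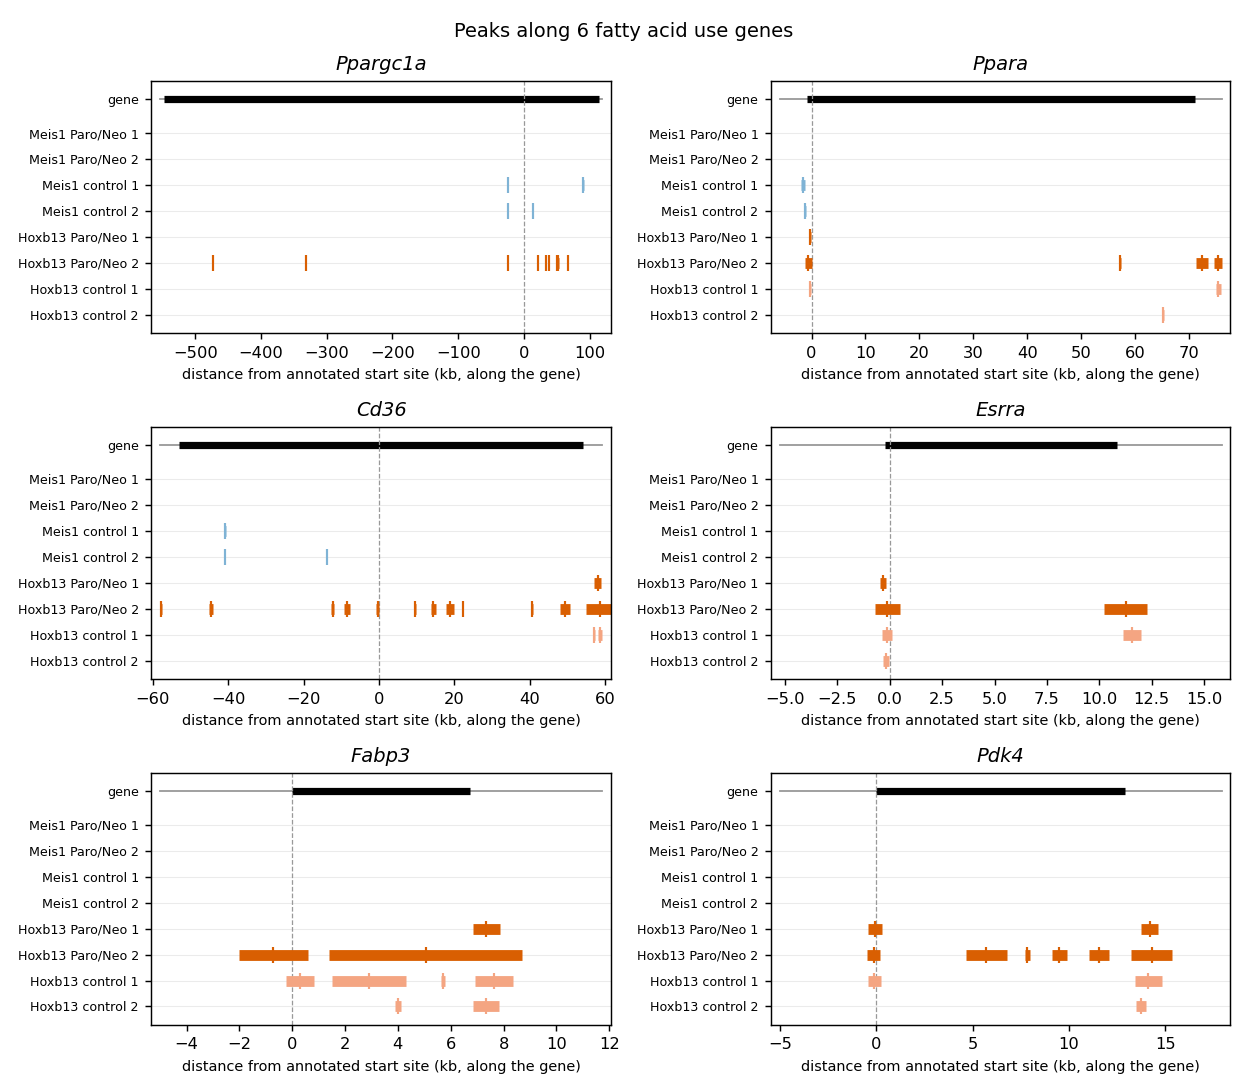
Peaks along 6 of the genes, drawn against distance in kb from the annotated start site in the direction of transcription; the black bar is the gene body, the thin line the 5 kb either side, and each row a library. Meis1 marks appear in the control rows of Ppargc1a, Ppara and Cd36 only, and Hoxb13 blocks recur at the start of Esrra and beyond the 3′ end of Fabp3 and Pdk4.

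No Hoxb13 region at the oxidation genes was called in more than 2 libraries. Cpt1b, the muscle carnitine palmitoyltransferase that admits long-chain fatty acids to mitochondria, had 0 and 3 peaks in Paro/Neo replicates 1 and 2, and 1 and 1 in control replicates 1 and 2. Its region chr15:89414759-89415945 was called in Paro/Neo replicate 2 and control replicate 2. Another Cpt1b region, chr15:89429439-89430022, overlaps the neighbour Chkb and had a mean percentile of 1.74. Hadha, the alpha subunit of the mitochondrial trifunctional protein, had 0 and 3 peaks in Paro/Neo replicates 1 and 2, and 1 and 0 in control replicates 1 and 2. The shared one, chr5:30154804-30155540, sits over the start and also belongs to the window of Hadhb, which encodes the partner subunit.

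Acadm encodes medium-chain acyl-CoA dehydrogenase. Hoxb13 had 1 and 1 peaks there in Paro/Neo replicates 1 and 2, and 0 and 0 in control replicates 1 and 2. Its region chr3:153944216-153944936 over the start was the only one of the 50 with that pattern. How often the pattern occurs over all genes or regions was not counted, so it is a description only. Paro/Neo replicate 2 called 46.5% of all protein-coding genes, and Paro/Neo replicate 1 called 4.20%. Both peaks were weak within their lists, with rank 651 of 821 (fold 3.21) in Paro/Neo replicate 1 and rank 15622 of 16963 (fold 2.70) in Paro/Neo replicate 2. They share bases 218 to 300 of the printed window.

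Pdk4 encodes a kinase that switches off pyruvate dehydrogenase and so spares glucose when fatty acids are burned. Beyond its 3′ end, chr6:5480934-5483039 was called in all 4 Hoxb13 libraries at a mean percentile of 83.8, the highest of the 3 member regions called in all 4. Folds were 4.37 and 5.10 in Paro/Neo replicates 1 and 2, ranks 107 of 821 and 235 of 16963. In control replicates 1 and 2 they were 4.19 and 3.56, ranks 438 of 5202 and 472 of 1121. A second region, chr6:5495990-5496754, covers the whole printed promoter window in Paro/Neo replicates 1 and 2 and in control replicate 1, at percentiles 22.3, 72.0 and 38.5. In each of these 3 libraries the peak beyond the 3′ end ranked above the one at the start.

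A promoter entry existed for 8 of the 10 genes, and these were examined at both ends. A Hoxb13 peak touched the promoter window at 4 and 7 of the 8 in Paro/Neo replicates 1 and 2, and at 5 and 1 in control replicates 1 and 2. Over 17492 genes with an entry the shares were 1.99% and 33.1% in the Paro/Neo replicates, and 16.0% and 3.08% in the control replicates. Esrra was the only member touched in all 4 libraries, as were 1.15% of genes. The 5 kb beyond the 3′ end held a peak at 3 and 6 of the 8 in Paro/Neo replicates 1 and 2, and at 5 and 2 in control replicates 1 and 2. Shares over all genes there were 1.30% and 18.2% in the Paro/Neo replicates, and 6.47% and 1.75% in the control replicates. Both ends of the members were called more often than those of all genes in each of the 4 libraries, and no order by treatment appeared at either end. The members were chosen with earlier results of these data known. Peaks beyond the 3′ end overlapped a neighbouring gene at Ppara (Cdpf1), Esrra (Prdx5 and Trmt112), Fabp3 (Zcchc17) and Hadha (Garem2), but not at Cd36 and Pdk4. How often this holds over all genes was not counted. Meis1 touched none of the 8 promoter windows in any library.

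**Figure D4:**
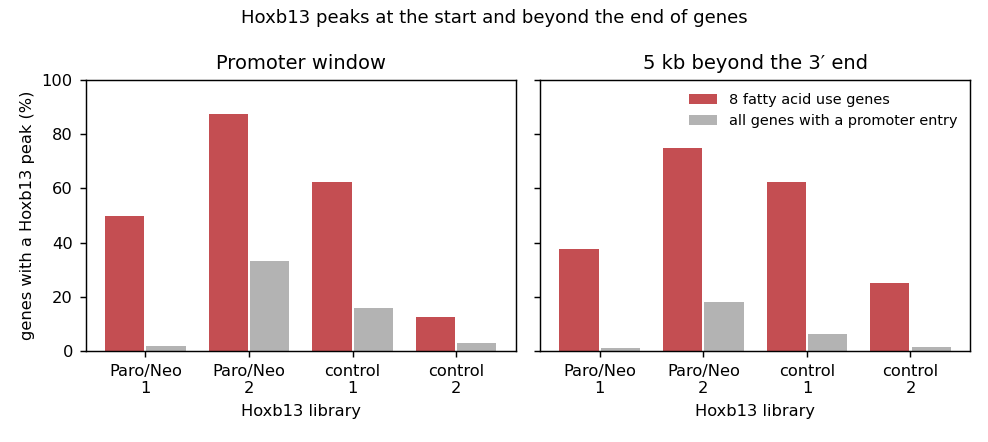
Share of genes, in percent, with a Hoxb13 peak over the promoter window (left) and in the 5 kb beyond the 3′ end (right), by library, for the 8 fatty acid use genes with a promoter entry in red and all genes with one in grey. In both panels the red bar is above the grey bar in each of the 4 libraries.

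In letters, the promoters were mixed. GC content was 74.7% at Ppara, 66.0% at Esrra, 65.0% at Fabp3, 62.3% at Acadm, 60.7% at Pdk4 and 58.7% at Hadha, against a median of 56.3% over 21263 promoter windows. Cd36, with 43.0%, and Ppargc1a, with 48.7%, were below it, and they were the windows touched by Hoxb13 in 1 and 0 libraries. Other windows were touched in 2 to 4. A set of 4 short motifs was searched on both strands. TGACAG, a core of Meis sites, occurred in 18.7% of windows and in 1 of the 8, Esrra, at bases −8 to −3 on the opposite strand. AAGGTCA, the half-site of ERR receptors, occurred in 4.08% of windows and in 1 of the 8, Acadm, at −249 to −243 on the opposite strand. TTTATTG and TTTACGA, letters bound by posterior Hox proteins, were in 3.85% and 0.574% of windows and in 0 of the 8. A match is a description of the letters and no sign of occupancy.

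The rest of the pathway was read from 6 lists with 61 further genes. A Meis1 peak lay at 8 and 4 of the 61 in Paro/Neo replicates 1 and 2, and at 11 and 13 in control replicates 1 and 2. Shares over all protein-coding genes were 4.07% and 2.83% in the Paro/Neo replicates, and 8.59% and 8.21% in the control replicates. The count averaged 6 ± 2.83 in Paro/Neo libraries and 12.0 ± 1.41 in control libraries (SD, n = 2 each), a difference of −6 (exact two-sided permutation p = 0.333). With the second replicates exchanged this difference was 3, and with each list shortened to 1025 peaks it was −0.500 (exact two-sided permutation p = 1.00). By gene, Prkaa2, a catalytic subunit of AMP-activated kinase, was the only 1 of the 61 with a peak in neither Paro/Neo library and in both control libraries, at a mean percentile of 12.0. That pattern was found at 2.08% of all protein-coding genes, so 1 of 61 is near the background. Other fatty acid genes had Meis1 in Paro/Neo libraries too. Lpin1, which encodes a phosphatidate phosphatase that also coactivates PPARα, held a region called in all 4 libraries, at a mean percentile of 67.4. Regions in 3 libraries lay at Klf15, a transcription factor of fuel use, at Lmf1, which matures lipoprotein lipase, at Pdk2, and at 2 sites of Mgll, the monoglyceride lipase gene. A region at Pdp1, a pyruvate dehydrogenase phosphatase gene, was called in Paro/Neo replicate 1 and control replicate 2, and a second site of Lmf1 in neither Paro/Neo library and both control libraries. Meis1 at Pdk2 was called in Paro/Neo replicate 1 and both control libraries, whereas its paralogue Pdk4 had no Meis1 peak.

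Split by role, the carnitine shuttle and malonyl-CoA list held Meis1 peaks at 0 and 0 of 8 genes in Paro/Neo replicates 1 and 2, and at 0 and 1 in control replicates 1 and 2. Beta-oxidation genes held 0 and 0 of 13 in the Paro/Neo replicates, and 2 and 0 in the control replicates. Regulators held 3 and 1 of 15 in the Paro/Neo replicates, and 5 and 5 in the control replicates. Genes of pyruvate dehydrogenase control held 2 and 0 of 7 in the Paro/Neo replicates, and 1 and 2 in the control replicates. Uptake and lipolysis genes held 2 and 2 of 10 in the Paro/Neo replicates, and 2 and 3 in the control replicates, and other PPAR targets 1 and 1 of 8 in the Paro/Neo replicates, and 1 and 2 in the control replicates. The shares over all protein-coding genes given above are the background of these counts too. A difference between roles was not tested.

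Hoxb13 peaks lay at 6 and 52 of the 61 genes in Paro/Neo replicates 1 and 2, and at 28 and 7 in control replicates 1 and 2 (means 29.0 ± 32.5 in Paro/Neo and 17.5 ± 14.8 in control libraries, SD, n = 2 each; difference 11.5, exact two-sided permutation p = 1.00). Without Paro/Neo replicate 2 the difference was −11.5, and without Paro/Neo replicate 1 it was 34.5. Beside these counts, 4.20% and 46.5% of all protein-coding genes held a Hoxb13 peak in Paro/Neo replicates 1 and 2. In control replicates 1 and 2 the shares were 24.2% and 5.79%. Genes with Hoxb13 in all 4 libraries were Rxrb, a partner receptor of the PPARs named after its values were seen, the fatty acid binding protein gene Fabp4, Txnip and Ucp2, which encodes a mitochondrial uncoupling protein. The widest region that these lists held in all 4 libraries, 12061 bp at chr17:56098835-56110895 with a mean percentile of 99.2, reaches the window of Plin5, a lipid droplet protein of oxidative tissues, although peaks of only 3 libraries fall inside that window. Fabp4, Txnip and Ucp2 carried regions of 2350, 7946 and 5471 bp at mean percentiles of 89.4, 91.8 and 84.4.

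The same pattern of calls over all 8 libraries was shared by other protein-coding genes. Ppargc1a shared its pattern with 184 genes, 0.841% of all, among which Gnptab, Arhgef3, Htra1 and Ezr had high mean Meis1 percentiles in the control libraries, 80.9 to 85.6. Lpl shared its own with 128 genes, led by Hes6, Per2, Denn2b, Prkar2b and Fzr1 at 80.1 to 88.3. For Ppara 29 genes were alike, led by Spag7, Arhgap35, Pde6d, Cdyl and Ablim1 at 57.1 to 79.0. Cd36 had 5, namely Gm38469, Kmt2d, Nid1, Dhrs11 and Cish at 38.3 to 84.2.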

How the data were processed

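Peak lists of 8 libraries were used, each in the broadPeak layout without a header; the 8 inputs were not analysed here. The authors used Bowtie2, MACS2, HOMER, FastQC 0.11.5 and Picard 1.127 with mm10, per the submitters' processing notes; the caller's options and control are not given in the sources. Column 7 holds the deposited ratio, the fold enrichment of a peak, and ranked peaks within their own list. The deposited −log10 p and −log10 q came with the same peaks (smallest −log10 q 1.00 to 1.06), and the deposited score was not used.

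Peaks on chromosomes 1 to 19, X and Y were assigned to genes of a RefSeq table of GRCm38.p6 by overlap of at least 1 bp with the gene body and 5 kb either side, and merged into regions per antibody. Counts per library were compared by exact two-sided permutation of the labels, with 6 orders, or 36 for the antibody difference. The replicate block and the crossed pairing instead permuted the signs of paired differences. The lists have no counts of reads, so no interval or floor was attached to an absent peak. Computation used python 3.11.15, numpy 2.4.6, pandas 2.3.3 and matplotlib 3.10.9, and the counting was tested on simulated data.

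All 10 genes are named; of the 6 lists, genes with a region in at least 2 Meis1 or in all 4 Hoxb13 libraries; and the 5 genes most like each of Ppargc1a, Lpl, Ppara and Cd36. Some genes that this rule names are not reported here. Members, lists and motifs were chosen with earlier results of these data known. The motif search, the values without Ppargc1a and the crossed pairing were added after seeing the data.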

Additional observations from a re-analysis of the deposited data

How the results depend on the processing

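No test here can pass 0.05 with 2 libraries against 2, so alternatives were read by direction: 5 differences reversed, 2 came to 0, 4 counts of regions moved by over 1.5 times, and 95 values did neither, although some of them shrank or grew. With −log10 q of at least 2, member regions in all 4 Hoxb13 libraries numbered 1 in place of 3 and those in at least 2 numbered 8 in place of 15. With lists shortened to 1025 Meis1 and 821 Hoxb13 peaks, Meis1 member regions in neither Paro/Neo and both control libraries numbered 1 in place of 4, and Hoxb13 regions in at least 2 libraries 3 in place of 15; the Meis1 differences were then −1.5 members and −0.500 pathway genes, and the antibody difference −3. With the second Meis1 replicates exchanged, the Meis1 differences were 0 members, 0.236 peaks per 1000 and 3 pathway genes, and the antibody difference −1.5. Leaving out 1 library gave Hoxb13 differences of −0.500 to 3.50 members, −1.33 to 4.31 peaks per 1000 and −11.5 to 34.5 pathway genes. The gene body alone removed Ppara from the Meis1 pattern and left Esrra and Ppara with Hoxb13 in all 4 libraries, and 10 kb put Fabp3 in place of Ppara for Meis1. The causes were not tested.

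Same-numbered replicates did not deviate together (correlation of their deviations −0.02 for Meis1 and −0.43 for Hoxb13). With the replicate block the Meis1 difference stayed −4 (exact permutation p = 0.500) and the Hoxb13 difference 1.5 (exact permutation p = 1.00). The antibody difference with the block stayed −5.50 (exact permutation p = 0.500), and the crossed pairing gave 1.5 for Hoxb13 (exact permutation p = 0.500). These permutations change the signs of 2 paired differences, and 0.500 is the smallest p they can give. Unknown depth limits what an absent peak means.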
